A study of Mus musculus with 7 samples.

Results

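Calcr, Cd34, Spry1, Sdc3, Sdc4, Vcam1, Chrdl2 and Cxcr4 mark quiescent satellite cells, the stem cells that lie between a muscle fibre and its basement membrane. These 8 genes were chosen by name, with earlier results of these data known. All 8 of 8 were in the expression table with 1 probe set annotated to that gene alone, and all 8 passed the filter on low signal, among 13287 named genes of which 9944 were tested. Cells came from Tg:Pax7-nGFP mice (labelled TgPax7nGFP), which carry a nuclear GFP transgene driven by Pax7 in every group, and they were sorted on size, granularity and GFP. The 3 groups were cells from living old mice aged 24 to 26 months (old, 2 arrays), cells taken 2 days post mortem (D2PM, 2 arrays) and cells taken 4 days post mortem (D4PM, 3 arrays). By the study's account the post-mortem animals were 8 to 12 weeks old, so death and the difference in age cannot be told apart between the living and the post-mortem groups. The series title speaks of young adults and the design text of weeks where the array labels and the methods give months for the living animals, and the labels were followed. Whether arrays of 1 group were made from different mice is not given in the sources used here.

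A quiescent satellite cell is held out of the cell cycle by signals received at its surface from the fibre and the niche. Calcr is the calcitonin receptor, which raises cyclic AMP and keeps the cell in place and at rest, and Spry1 is an intracellular inhibitor of the FGF receptor pathway that serves the return to quiescence after injury. The syndecans Sdc3 and Sdc4 are heparan sulfate proteoglycans that present growth factors to their receptors, Vcam1 and Cd34 are surface glycoproteins used to isolate these cells, Cxcr4 is the receptor of the chemokine Cxcl12, and Chrdl2 is a secreted antagonist of BMPs.

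After death 4 of the 8 markers were higher than in old cells (Calcr, Cd34, Spry1 and Cxcr4), where 14.4% of all genes tested were, and 1 was lower (Vcam1), where 14.7% were. The 1 of 8 that fell is close to the share over all genes. Sdc4, Sdc3 and Chrdl2 did not pass the test. The rises were 1.29-fold to 1.60-fold and the fall of Vcam1 was 1.66-fold, on the scale of the normalised signal. No marker passed the test between the 2 days. Here and below, levels are log2 RMA values, and a difference called post-mortem minus old is the mean of the D2PM and D4PM group means minus the old mean. A gene is said to have risen or fallen where its Benjamini-Hochberg adjusted p from limma over all 9944 genes was under 0.05. These words, and after death, describe post-mortem cells beside cells of living old mice, and not a change followed over time.

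The gene starts of 5 markers are shown, those of the genes that rose and of Sdc4, which did not pass the test. Sdc3, which did not pass either, is not shown, and Vcam1, which fell, had no matched promoter. Each line is the 120 bases before the start annotated by RefSeq on the GRCm38.p6 assembly, read 5′ to 3′ on the strand of the gene. Capitals mark matches to the motifs searched.
Calcr (first of 2 starts), chr6:3763624-3763743, minus strand: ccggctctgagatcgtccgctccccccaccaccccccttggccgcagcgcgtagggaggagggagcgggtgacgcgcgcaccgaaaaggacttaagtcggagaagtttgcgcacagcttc
Cd34, chr1:194938701-194938820, plus strand: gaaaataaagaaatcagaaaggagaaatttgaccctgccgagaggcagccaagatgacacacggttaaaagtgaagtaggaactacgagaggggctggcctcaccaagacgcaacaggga
Spry1, chr3:37639827-37639946, plus strand: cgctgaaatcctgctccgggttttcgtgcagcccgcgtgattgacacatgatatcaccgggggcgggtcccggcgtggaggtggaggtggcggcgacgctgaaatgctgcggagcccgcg
Cxcr4, chr1:128592300-128592419, minus strand: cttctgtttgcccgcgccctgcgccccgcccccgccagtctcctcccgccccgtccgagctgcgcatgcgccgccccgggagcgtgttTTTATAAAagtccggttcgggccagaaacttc
Sdc4, chr2:164443189-164443308, minus strand: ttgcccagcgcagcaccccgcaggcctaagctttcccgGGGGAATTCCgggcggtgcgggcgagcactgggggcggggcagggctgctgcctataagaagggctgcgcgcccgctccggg

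The 250 bases before the start were searched on both strands for the consensus site of NF-kappaB, for the Notch effector RBPJ (GTGGGAA), for the interferon-stimulated response element, for AP-1 (TGANTCA) and for the TATA box (TATAAA). Of 32851 promoters in the RefSeq table, 7.25%, 5.42%, 2.98%, 6.75% and 12.4% held a match, in that order. Of the 8 markers, 6 were matched in that table with 7 promoters, and Vcam1 and Chrdl2 were not. Sdc4 had a match to the NF-kappaB consensus at positions -82 to -73 from the start, and Cxcr4 had a TATA box at -30 to -25 that overlaps a match on the other strand at -32 to -27. The letters of the 5 motifs were not in the windows of Calcr (both starts), Cd34, Spry1 and Sdc3. The markers also differed in base composition there. CG dinucleotides numbered 32 for Sdc3, 24 and 2 for the starts of Calcr, 23 for Spry1, 19 each for Sdc4 and Cxcr4 and 6 for Cd34, against a median of 6 over all promoters. No reading of these arrays bears on whether a factor was bound.

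**Figure D1:**
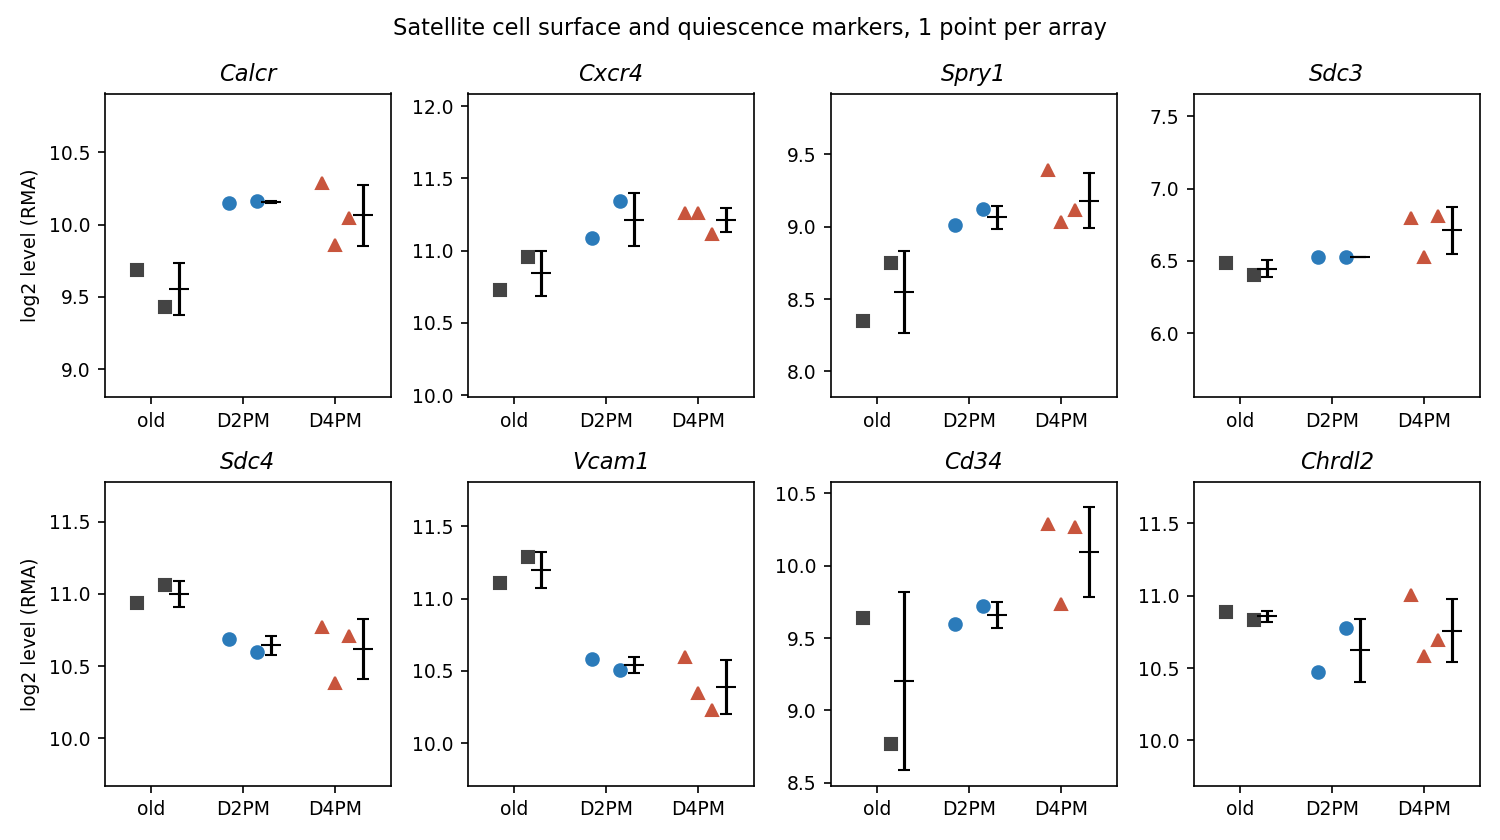
Log2 RMA level (vertical axis) of each marker on each of the 7 arrays, by group, with the group mean as a horizontal tick and the SD as error bar. The panels span the same number of log2 units, so distances may be compared between panels. Calcr, Cxcr4 and Spry1 lie lower and Sdc4 and Vcam1 higher on the old arrays than on every post-mortem array, and the old arrays of Cd34 lie far apart.

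Calcr (chromosome 6, 3685678 to 3764713 on GRCm38.p6) had levels of 9.69 and 9.43 on the old arrays, 10.15 and 10.16 at D2PM and 10.29, 9.86 and 10.05 at D4PM. Every post-mortem array was above both old arrays. The level rose after death by 0.55 log2 (SE 0.14, 95% interval 0.25 to 0.86, adjusted p = 0.0114), or 1.47-fold. It had risen at D2PM (0.60, adjusted p = 0.0261) and at D4PM (0.51, adjusted p = 0.0260). The 2 days differed by -0.09 (95% interval -0.42 to 0.24). Without old replicate 2 the rise after death was 0.43 (adjusted p = 0.164). The call at D2PM was lost without that array or either D2PM array (0.47 to 0.61), and the call at D4PM without that array, either D2PM array, D4PM replicate 1 or D4PM replicate 3 (0.38 to 0.52).

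Cxcr4 (chromosome 1, 128588199 to 128592299) had levels of 10.73 and 10.95 on the old arrays, 11.09 and 11.34 at D2PM and 11.26, 11.26 and 11.11 at D4PM. The groups did not overlap, although the gap between the higher old array and the lower D2PM array was narrower than the spread within D2PM. The level rose by 0.37 log2 (SE 0.13, 95% interval 0.09 to 0.65, adjusted p = 0.0467), or 1.29-fold. Neither day passed the test by itself (0.37 at D2PM, adjusted p = 0.107, and 0.37 at D4PM, adjusted p = 0.0668). This call was lost when any 1 of 6 arrays was left out, with values between 0.26 and 0.48, and it held without D4PM replicate 3. It was also lost when arrays were centred on their medians (0.31, adjusted p = 0.0834), with no filter on mean signal (adjusted p = 0.0510) and with array weights (adjusted p = 0.0591).

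Spry1 (chromosome 3, 37639947 to 37644599) had levels of 8.35 and 8.75 on the old arrays, 9.01 and 9.12 at D2PM and 9.39, 9.03 and 9.11 at D4PM. All 5 post-mortem arrays were above the higher old array. The level rose by 0.57 log2 (SE 0.15, 95% interval 0.25 to 0.89, adjusted p = 0.0126), or 1.49-fold. It had risen at D4PM (0.63, adjusted p = 0.0124), and the value at D2PM was 0.52 (adjusted p = 0.0585). The call for all post-mortem arrays was lost without old replicate 1 (0.37, adjusted p = 0.150) and without D2PM replicate 2 (0.55, adjusted p = 0.0583), and that at D4PM without old replicate 1 (0.43, adjusted p = 0.120).

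The syndecans did not pass the test in any comparison. Sdc3 (chromosome 4, 130792537 to 130826318) had levels of 6.49 and 6.40 on the old arrays, 6.53 on both D2PM arrays and 6.80, 6.53 and 6.81 at D4PM. The old arrays were the lowest, but the difference after death was 0.17 log2 (SE 0.12, 95% interval -0.09 to 0.44, adjusted p = 0.310). Sdc4 (chromosome 2, 164424247 to 164443188) had levels of 10.94 and 11.06 on the old arrays, 10.69 and 10.60 at D2PM and 10.77, 10.39 and 10.71 at D4PM. Every post-mortem array was below both old arrays, with a difference of -0.37 log2 (SE 0.13, 95% interval -0.66 to -0.08, adjusted p = 0.0580). This difference passed the threshold when arrays were centred on their medians, with a stricter filter on mean signal, with a trended and robust variance prior and without D4PM replicate 1, with values between -0.43 and -0.37.

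Vcam1 (chromosome 3, 116110020 to 116129688) encodes the adhesion molecule that integrins on other cells bind. Its levels were 11.11 and 11.29 on the old arrays, 10.58 and 10.50 at D2PM and 10.60, 10.35 and 10.23 at D4PM. No post-mortem array reached either old array. Vcam1 fell by 0.73 log2 (SE 0.13, 95% interval -1.02 to -0.45, adjusted p = 0.00201), or 1.66-fold. It was lower at D2PM (-0.66, adjusted p = 0.0138) and at D4PM (-0.81, adjusted p = 0.00186, 1.75-fold). Without old replicate 2 the difference over all post-mortem arrays was -0.65 (adjusted p = 0.0553). At D2PM the call was lost without old replicate 2 or either D2PM array (-0.69 to -0.57), and at D4PM it held with any 1 array left out.

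Cd34 (chromosome 1, 194938821 to 194961292), a sialomucin of satellite cells and also of endothelial and blood progenitor cells, had levels of 9.64 and 8.77 on the old arrays. The post-mortem levels were 9.59 and 9.72 at D2PM and 10.29, 9.74 and 10.27 at D4PM. The SD of the old arrays was 0.61, the widest spread of any of the 8 markers within a group, and old replicate 1 lay among the D2PM arrays. The level rose by 0.67 log2 (SE 0.22, 95% interval 0.20 to 1.15, adjusted p = 0.0376), or 1.60-fold, and at D4PM by 0.89 (adjusted p = 0.0159). At D2PM the value was 0.46 (adjusted p = 0.247). The value was 0.24 without old replicate 2 and 1.11 without old replicate 1, and the call was lost without old replicate 2, either D2PM array, D4PM replicate 1 or D4PM replicate 3. It was also lost with a trended and robust variance prior (adjusted p = 0.0732). The call at D4PM was lost when any 1 of those 5 arrays was left out, with values from 0.46 without old replicate 2 to 0.89. Cd34 was the 1 marker of 8 whose D4PM arrays all lay above its D2PM arrays, with a difference between days of 0.44 (95% interval -0.08 to 0.96, adjusted p = 0.657). Over all genes tested, D4PM and D2PM arrays did not overlap in 25.3%.

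Chrdl2 (chromosome 7, 100006404 to 100034728) had levels of 10.88 and 10.83 on the old arrays, 10.47 and 10.78 at D2PM and 11.00, 10.58 and 10.69 at D4PM. D4PM replicate 1 lay above both old arrays and the other 4 post-mortem arrays below them. The difference was -0.17 log2 (SE 0.14, 95% interval -0.48 to 0.15, adjusted p = 0.407).

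Read together, the markers did not move as a block. At D2PM 1 of 8 was higher than in old cells (Calcr, against 10.3% of all genes) and 1 of 8 lower (Vcam1, against 9.11%). At D4PM 3 of 8 were higher (Calcr, Cd34 and Spry1, against 12.4%) and 1 of 8 lower (Vcam1, against 15.5%). The median difference after death was 0.27 log2 over the 8 markers and 0.00 over all genes. Old and post-mortem arrays did not overlap in 6 of 8 markers, the exceptions being Cd34 and Chrdl2, and in 46.0% of all genes. D2PM minus old and D4PM minus old share the 2 old arrays. With Student's t-test, 1 marker passed after death (Vcam1) and none passed at either day. Without old replicate 2, 1 marker passed the test after death (Spry1), and 858 genes in all in place of 2887. Of the genes in the lists of partners and of other cell types described below, 29 passed without that array in place of 61.

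Between the days 0 of 8 markers passed the test of limma, 0 had an unadjusted p under 0.05, and 0 passed in any alternative run, Student's t-test included, against 0.191% of all genes in the fit used here. The differences at D4PM minus D2PM lay between -0.15 for Vcam1 and 0.44 for Cd34. Apart from that of Cd34, which reached 0.96, their 95% intervals lay between -0.46 (Vcam1) and 0.48 (Sdc3 and Chrdl2). In the order of group means, Calcr and Cxcr4 ran old, D4PM, D2PM from low to high, and Cd34, Spry1 and Sdc3 ran old, D2PM, D4PM. Sdc4 and Vcam1 ran D4PM, D2PM, old, and Chrdl2 ran D2PM, D4PM, old. In none of the 8 did the 2 post-mortem groups differ by the test, whose estimate of the spread is shared by all 3 groups, old arrays included. With post-mortem arrays alone 0 of 8 passed as well.

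**Figure D2:**
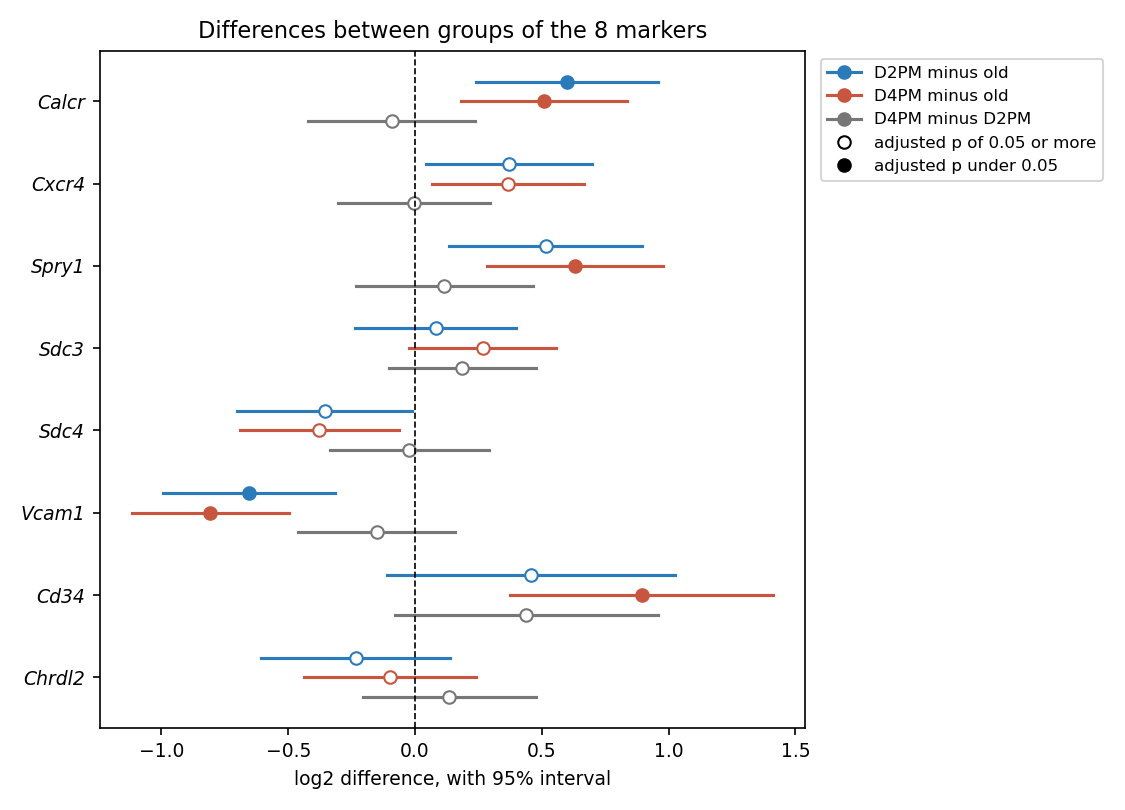
Log2 difference (horizontal axis) of each marker for D2PM minus old, D4PM minus old and D4PM minus D2PM, with the 95% interval from limma as a line; filled points have an adjusted p under 0.05 and open points do not. The filled points belong to Calcr and Vcam1 at both days and to Spry1 and Cd34 at D4PM, and every interval between the days crosses 0.

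Among other genes of satellite cell identity and surface, no rise passed the test beside those of the 4 markers, which leaves smaller rises undecided. Pax7, the transcription factor of these cells, had a difference of 0.30 (adjusted p = 0.135) and Myf5, a myogenic determination factor, of 0.22 (adjusted p = 0.210). At D4PM minus old, Pax7 had a value of 0.37 (adjusted p = 0.0971), close to that of Cxcr4 (0.37, adjusted p = 0.0668). Of 13 identity and surface genes tested, 0 rose and 6 fell, with a median of -0.31. Differences were above 0 in 4 of the 13, Pax7, Myf5 and Cdh15 among them, and below 0 in 9. Fgfr1, an FGF receptor, fell by 0.82 (adjusted p = 0.000971), the tetraspanin gene Cd82 by 0.66 (adjusted p = 0.00179) and Met, the receptor of hepatocyte growth factor, by 0.66 (adjusted p = 0.00427). Cav1, which encodes a coat protein of caveolae, fell by 0.43 (adjusted p = 0.0187). The calls of Met and Cav1 were lost without old replicate 2 (-0.47 and -0.34), and that of Cav1 also without D2PM replicate 1 (-0.42). Pax7, Myf5 and Cdh15 did not pass the test in any comparison. Itga7, an integrin chain of satellite cells, had a difference of -0.31 after death (adjusted p = 0.0627) and was lower than old at D4PM (-0.44, adjusted p = 0.0215). Pax7 lay between 9.87 and 10.52 on the 7 arrays.

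Regulators of quiescence included Hes1, which had the largest rise of the genes in the 7 lists of partners. Of 14 regulators tested, 5 rose and 1 fell, with a median of 0.16. Hes1, a Notch target, had levels of 7.64 and 7.22 on the old arrays and between 9.56 and 10.10 on the post-mortem arrays, a rise of 2.32 log2 (SE 0.14, adjusted p = 2.51e-06). The Notch targets Hey1 and Heyl rose by 0.99 (adjusted p = 0.000195) and 0.81 (adjusted p = 0.00174). Tek, the receptor of angiopoietin, rose by 0.66 (adjusted p = 0.0194); it is expressed by endothelial cells too and stands in that list as well. The call of Tek was lost without old replicate 2 (0.45) or either D2PM array (0.61 to 0.71), and that of Heyl without old replicate 2 (0.63, adjusted p = 0.0580). Myod1, which commits cells to the myogenic programme on activation, fell by 1.23 (adjusted p = 0.000360), from 10.90 and 10.97 on the old arrays to between 9.25 and 9.91. Ccnd1, cyclin D1 of the G1 phase, rose by 0.70 (adjusted p = 0.0427), but its groups overlapped, with 8.94 and 9.75 on the old arrays and 9.50 to 10.34 after death. The value was 0.30 without old replicate 1 and 1.11 without old replicate 2, and the call was lost when any 1 array other than D4PM replicate 3 was left out. Myod1 and Ccnd1 were the genes called among 11 of activation, cycling and differentiation, of which 1 rose and 1 fell. The difference of Mki67, a marker of cycling cells, was -0.38 (adjusted p = 0.213). Its level was listed as 5.18 on all 5 post-mortem arrays and as 5.03 and 6.10 on the old arrays.

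Most partners of the calcitonin receptor did not pass the test. Of 11 tested, 1 rose and 2 fell, which is near the shares over all genes, with a median of 0.01. Ramp2, a protein that pairs with receptors of the calcitonin family, rose by 0.63 (adjusted p = 0.0184), with levels of 7.76 and 7.03 on the old arrays and 7.94 to 8.16 after death. Its value was 0.26 without old replicate 2 (adjusted p = 0.274) and 0.99 without old replicate 1, and the call was also lost without either D2PM array. Yap1, the transcriptional co-activator of the Hippo pathway, fell by 0.86 (adjusted p = 0.000848), and its inhibitory kinase Lats1 fell by 0.66 (adjusted p = 0.00488, and -0.55 without old replicate 2, adjusted p = 0.100). Prkacb, a catalytic subunit of protein kinase A, had a difference of 0.31 (adjusted p = 0.0611). Ramp1 and Ramp3, Gnas, Adcy3 and Prkaca were not in the table.

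Members of the Sprouty family moved in opposite directions. Of 12 genes of FGF signalling and its feedback inhibitors tested, 3 rose and 5 fell, with a median of -0.18. Spry2, a Sprouty protein like Spry1, had levels of 9.43 and 9.91 on the old arrays and 8.13 to 8.36 after death, and fell by 1.39 log2 (SE 0.14, adjusted p = 9.07e-05). Spry4 went the other way, from 7.96 and 7.62 to between 8.53 and 8.72, and rose by 0.82 (adjusted p = 0.00106). Spred1, a Sprouty-related inhibitor, fell by 1.24 (adjusted p = 8.28e-05), so feedback inhibitors were found on both sides.

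Of 12 genes of syndecans and heparan sulfate synthesis tested, none rose and 4 fell, with a median of -0.19. Sulf1, an extracellular sulfatase that trims heparan sulfate, fell by 0.96 (adjusted p = 0.000216) and Ndst2, an N-deacetylase and N-sulfotransferase, by 1.00 (adjusted p = 0.000853). Sdcbp, whose product syntenin binds the tails of syndecans, fell by 0.60 (adjusted p = 0.00232). Extl3, a glycosyltransferase of heparan sulfate chains, fell by 0.53 (adjusted p = 0.0334), with 1 D2PM array at 6.49 near the old arrays at 6.59 and 6.71, and its call was lost without either old array, D2PM replicate 2 or D4PM replicate 2 (-0.59 to -0.38).

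The list of partners of Vcam1 and Cxcr4 also held Icam1, a relative of Vcam1. Of its 6 genes tested, none rose and 3 fell, with a median of -0.16. Icam1, an adhesion molecule of the same superfamily as Vcam1, fell by 0.68 (adjusted p = 0.00132), from 7.23 and 7.22 to between 6.33 and 6.66. Itgb1, the beta chain of the integrin that binds Vcam1, fell by 0.34 (adjusted p = 0.0432), and Arrb1, an arrestin that desensitises chemokine receptors, fell by 0.59 (adjusted p = 0.0194). The call of Itgb1 was lost when any 1 array other than D4PM replicate 1 was left out (-0.40 to -0.28), and that of Arrb1 without either old array or D2PM replicate 1 (-0.74 to -0.44). Cxcl12, the ligand of Cxcr4, had a difference of 0.40 (adjusted p = 0.0950), with 0.11 without old replicate 2 and 0.68 without old replicate 1 (adjusted p = 0.0349). At D4PM alone it was 0.55 above old (adjusted p = 0.0419). Itga4, the integrin alpha chain that pairs with Itgb1, was not in the table.

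Chrdl2 itself did not pass the test, whereas some genes of BMP signalling did. The part of other cell types in the differences of this list was not tested. Of 17 BMP signalling genes tested, 6 rose and 2 fell, with a median of 0.11. Id1, a direct target, had levels of 7.89 and 7.45 on the old arrays and 8.61 to 9.70 after death, a rise of 1.39 log2 (SE 0.20, adjusted p = 0.000675). Id2 rose by 0.91 (adjusted p = 0.00177, and 0.58 without old replicate 2) and the inhibitory Smad7 by 0.72 (adjusted p = 0.00128). Bmpr2, the type II receptor, fell by 0.74 (adjusted p = 0.00188). The antagonists Chrd, Chrdl1 and Grem1 were not in the table.

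**Figure D3:**
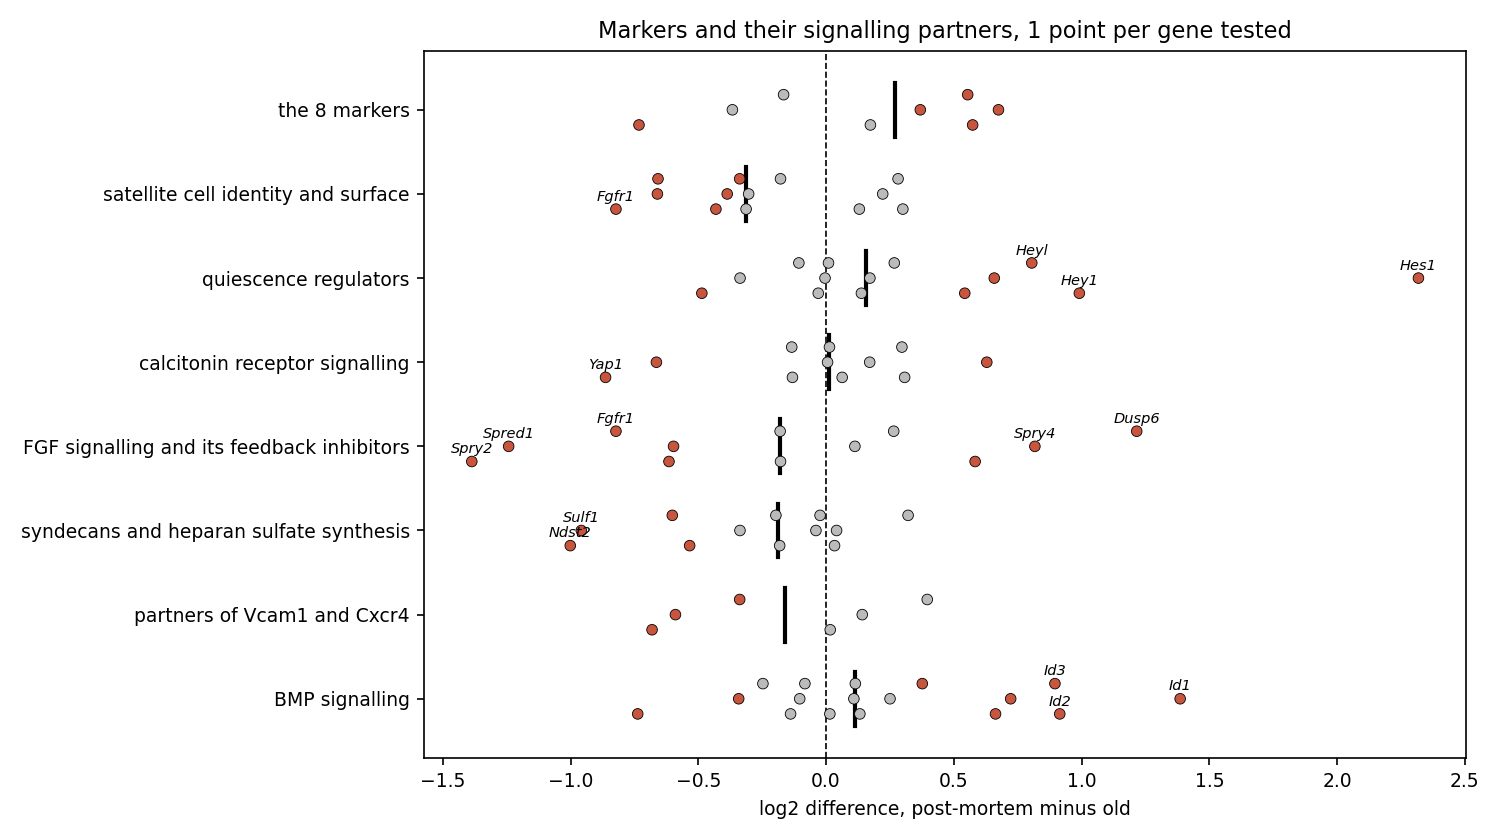
Log2 difference, post-mortem minus old (horizontal axis), of the 8 markers and of each gene tested in 7 lists of their partners, 1 point a gene, with red points for an adjusted p under 0.05 and grey points for the others, and a bar at the median of each list; vertical scatter within a row only separates points. The markers have a median of 0.27 and Hes1 stands at 2.32, while red points lie on both sides of 0 in the lists of FGF and BMP signalling.

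Transcripts of other cell types moved with the groups. In RNA from a pool of sorted cells, fewer cells of a type and less RNA per cell cannot be told apart. Of 17 endothelial markers, 11 rose, none fell and all 17 had differences above 0, with a median of 0.66. Their mean level was 6.44 and 5.81 on the old arrays, 6.83 to 6.84 at D2PM and 6.81 to 7.35 at D4PM, and Cdh5, the cadherin of endothelial junctions, rose by 1.77 (adjusted p = 0.000823, and 1.13 without old replicate 2). Old replicate 2 was the lowest of the 7 arrays both for this list and for Cd34, a gene that endothelial cells also express. It was also the lowest for Calcr, Sdc3, Ramp2 and Pax7 and for the means of the myofibre, Schwann cell, mural cell and fibroadipogenic progenitor markers. For Spry1 and Cxcr4 the lowest was old replicate 1. The part of endothelial RNA in the differences of Cd34, Tek and Ramp2 was not tested. Nor was its part in those of Vcam1 and Cxcr4, which endothelial cells can express too.

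Of 11 myofibre markers, 9 rose and none fell, with a median of 1.17. Their mean level was 7.49 and 7.15 on the old arrays and 8.19 to 8.51 after death, and Acta1, the actin of skeletal muscle fibres, rose by 1.88 (adjusted p = 1.36e-05). Of 5 Schwann cell markers, 3 rose and none fell, with a mean level of 6.75 and 6.37 on the old arrays and 7.10 to 7.26 after death. Their part in the rises of Calcr and Spry1 was not tested.

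Markers of fibroadipogenic progenitors, which share Cd34 with satellite cells, did not pass the test after death in any of 8 genes (median 0.24), and at D2PM 2 of the 8 were higher than in old cells, Lum (0.89, adjusted p = 0.0294) and Col1a2 (0.59, adjusted p = 0.0355). Their mean level was 8.38 and 7.80 on the old arrays, 8.51 to 8.67 at D2PM and 7.90 to 8.36 at D4PM, and the part of these cells in the difference of Cd34 was not tested. The defining genes Pdgfra and Ly6a of that cell type were not in the table, and Dcn, a matrix proteoglycan, had levels of 9.97 and 7.94 on the old arrays. Of 6 macrophage and monocyte markers none rose and 1 fell (Cd14, by 1.03, adjusted p = 0.00345, and by 0.65 without old replicate 1, where the call was lost), with a mean level of 6.48 and 5.81 on the old arrays and 5.66 to 6.09 after death. Of 6 mural cell markers none passed the test after death (median 0.25). No lymphocyte marker could be tested: of 9 listed, 5 were below the filter and 4 were not in the table.

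The order of the arrays within a group was counted over the markers, but not over all genes. D4PM replicate 1 was the highest D4PM array in 7 of 8 markers, and D2PM replicate 2 the higher D2PM array in 6 of 8, whereas the 2 old arrays were each the higher in 4 of 8. The SD of a marker within a group reached 0.61 in old, 0.22 at D2PM and 0.31 at D4PM.

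**Figure D4:**
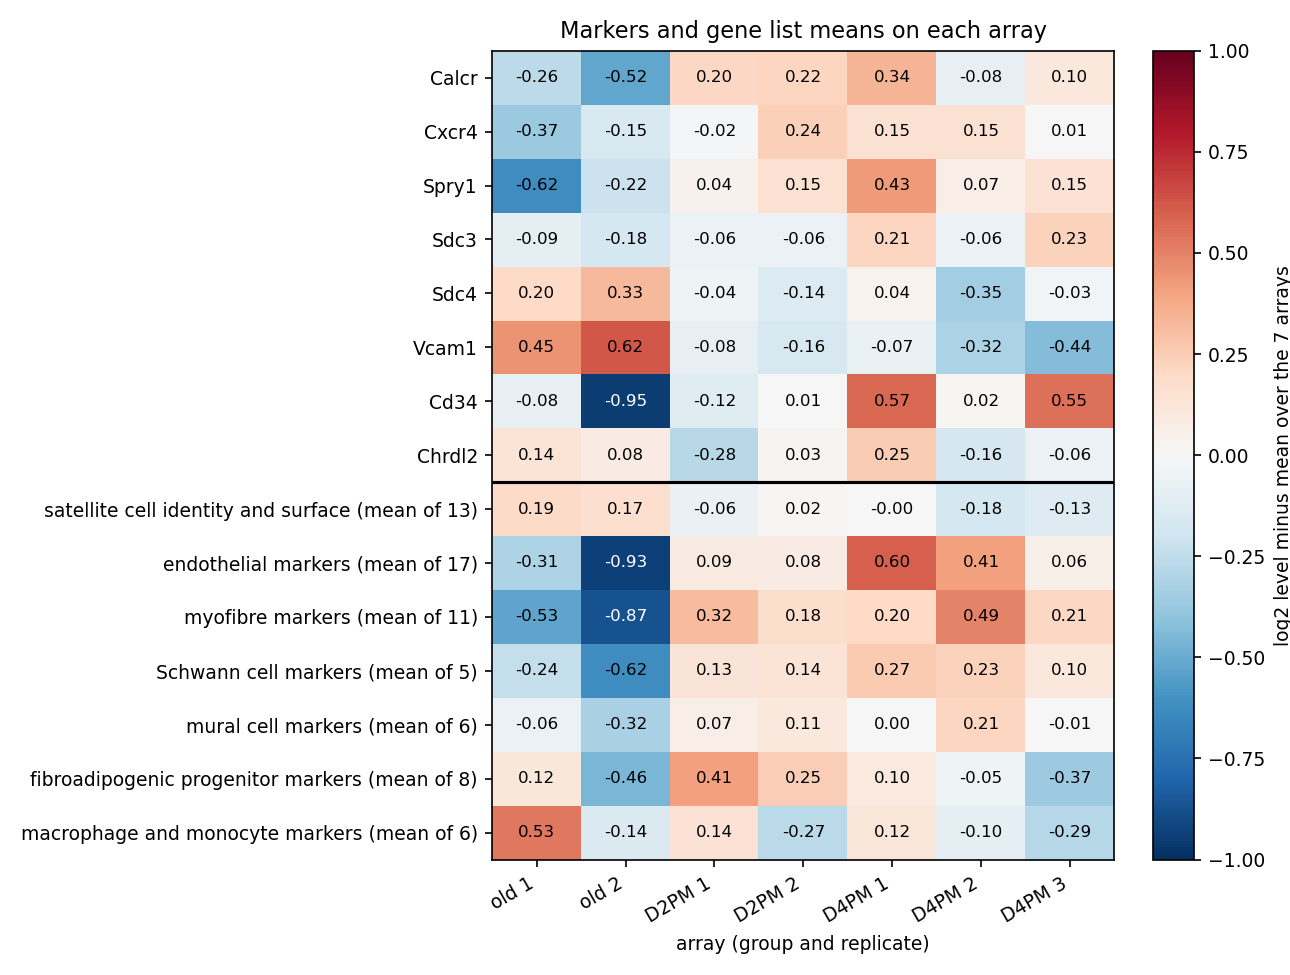
Log2 level minus its mean over the 7 arrays (colour scale and printed values) of each marker and of the mean of 7 gene lists, with 1 column per array. Old replicate 2 has the lowest values for Calcr, Cd34 and Sdc3 and for the endothelial, myofibre, Schwann cell, mural cell and fibroadipogenic progenitor markers. Vcam1 and Sdc4 are highest on the 2 old arrays.

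The genes most like each marker were those at the smallest Euclidean distance over the 7 arrays after each gene's own mean was subtracted, which is a description of 7 arrays in 3 groups with no test. Spry1 had the closest match, Tbx4, a T-box gene, at a distance of 0.0514, against a median of 0.93 over all genes. For Calcr the nearest were Thap3, Atp6v0e2 and Prr13 at 0.22 to 0.23 (median over genes 0.87). For Cd34 they were Adh1, Pdk2 and Serpini1 at 0.28 to 0.41, the loosest matches of the 8 (median 1.33).

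The nearest gene to Vcam1 was Appl1 at 0.09 and the nearest to Cxcr4 was Ehd2 at 0.10. Rpl14, a ribosomal protein gene, was nearest to Sdc3 at 0.08, Ptpn13 to Sdc4 at 0.11 and Nab2 to Chrdl2 at 0.11. The medians over all genes were 0.63 for Sdc3, 0.71 for Sdc4 and 0.66 for Chrdl2.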

How the data were processed

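Satellite cells were sorted by FACS directly into lysis buffer, and their RNA was amplified (Ovation Pico V2) and hybridised to 7 GeneChip Mouse Gene 1.0 ST arrays. The deposited values are log2 signals that the authors computed with RMA, which subtracts background, brings the arrays to a common distribution and combines the probes of each set; the submitters' processing notes name RMA and limma. Non-expressed and invariant probes had been removed by the authors, so percentages given for all genes are shares of genes that vary. The table held 18675 probe sets, with array medians between 6.11 and 6.19. Names came from the array annotation, matched by Entrez identifier to RefSeq genes of GRCm38.p6 (14425 of 14480 probe sets with a single gene; 774 named several and 3421 none). A gene was represented by the probe set of highest mean, and 9944 genes whose mean reached 5.12 (25th percentile) were tested.

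Groups were compared in R 4.3.3 with limma 3.58.1 (1 mean for each of 3 groups, empirical Bayes without trend, Benjamini-Hochberg adjustment over all genes tested, two-sided). The fit was tested on simulated data. P-values measure the spread between arrays, which may be technical, and the number of arrays limits the precision. RMA values carry no detection call.

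The markers, gene lists and alternatives were chosen with earlier results of these data known. Named genes were the 8 markers, up to 4 genes of each list with the largest moderated statistic after death, Pax7, Myf5, Myod1, Myog and Cxcl12, the brightest tested gene of each list of another cell type, and the 3 genes most like each marker; genes of the lists that were not in the table, Itga7 and Cdh15 were named besides. Alternatives were quantile normalisation a second time, centring of arrays on their medians, no filter, a 50th percentile filter, an interquartile range filter, averaging of a gene's probe sets, a robust prior with trend, array weights, blocking on replicate number, post-mortem arrays alone or as 1 group, each array left out, and Student's t-test, which the methods name in their general statistics.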

Additional observations from a re-analysis of the deposited data

Results flagged for a closer look

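Of the genes named in the report, 2 differed between D4PM and D2PM by limma's test of that difference. In that fit their differences from old depended on the day, but with Student's t-test 0 genes passed between the days. Myog, which encodes myogenin and drives differentiation, was lower at D4PM (difference -1.63 log2, adjusted p = 0.00255), with levels of 6.46 and 6.84 on the old arrays, 7.43 and 7.75 at D2PM and 6.12, 5.80 and 5.95 at D4PM. Actc1, the cardiac actin gene of developing muscle, differed by -1.13 (adjusted p = 0.0478), with levels of 6.12 and 6.87, 7.48 and 7.33, and 6.20, 6.24 and 6.38. Neither is a marker of quiescence, and both belong to the list of activation, cycling and differentiation. None of the 8 surface and quiescence markers met this criterion, and groups of 2 or 3 arrays were too small for a test of single arrays that stand apart.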

How the results depend on the processing

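Of the 8 markers, 5 passed the test after death, and 4 to 6 did under the alternatives other than Student's t-test, under which 1 did (Vcam1). For D2PM and D4PM minus old, 2 and 4 passed, and 0 and 0 did with the t-test. With each array left out in turn the counts ran from 1 to 4 after death, from 0 to 2 at D2PM and from 2 to 4 at D4PM. Without old replicate 2 the markers called were Spry1 after death, none at D2PM, and Spry1 and Vcam1 at D4PM. Without old replicate 1, D2PM replicate 1 and D2PM replicate 2 the counts after death were 3, 3 and 2. At D2PM the count was 0 without either D2PM array, and at D4PM it was 2 without either D2PM array, D4PM replicate 1 or D4PM replicate 3. Of the genes in the lists 61 passed after death, 37 with the t-test and 29 to 60 with an array left out, the lowest without old replicate 2. The cause of these differences was not tested, and a fit with 1 array left out also has a smaller number of arrays.

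The replicate numbers gave no sign of pairing the arrays (correlations of deviations between same-numbered arrays of -0.08 to 0.05), but groups of 2 or 3 arrays cannot exclude it. The replicate block, in which D4PM replicate 3 has no partner, left the counts of markers at 5, 2, 4 and 0, changed no call of a marker, and gave 54 genes in place of 19 between the days. Over all genes 2887 passed after death, 1719 with the t-test, 858 without old replicate 2 and 1865 without D2PM replicate 1. At D2PM 1931 passed, 15 with the t-test and 323 to 2054 with an array left out. At D4PM 2770 passed, 14 with the t-test and 911 without old replicate 2. Between the days 19 passed, 2 after the interquartile filter, 2 with post-mortem arrays alone, 0 with the t-test and 0 to 21 with an array left out.

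Values near 0 turned sign, and so did those of Actc1 and Mki67 after death (0.35 and -0.38 with all arrays). Between the days, Calcr ran from -0.20 without D4PM replicate 1 to 0.0097 without D4PM replicate 2. Sdc4 was 0.044 after a second quantile normalisation and 0.0081 with array weights, and ran from -0.098 to 0.096 with an array left out, above 0 without D2PM replicate 1 (0.026) or D4PM replicate 2. Chrdl2 ran from -0.019 without D2PM replicate 1 to 0.29 without D2PM replicate 2. Cxcr4 was 0.0053 after median centring and 0.044 with the replicate block, and ran from -0.13 without D2PM replicate 1 to 0.12 without D2PM replicate 2 (0.044 without D4PM replicate 3). After death, Myog was -0.044 with the t-test and with post-mortem arrays as 1 group. Without old replicate 1 and old replicate 2 respectively, Myog was -0.071 and 0.31, Actc1 -0.028 and 0.72, C1qa 0.14 and -0.36, Tyrobp 0.25 and -0.46, and Mki67 -0.91 and 0.15. Tbx4 was the gene nearest to Spry1 under each alternative run for the distances, whereas the rank of Thap3 beside Calcr ran from 1 to 18.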

Other observations

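Genes that mark muscle differentiation took different courses beside the markers of quiescence. Relative to old cells Myog was higher at D2PM (0.94, adjusted p = 0.00505) and lower at D4PM (-0.70, adjusted p = 0.00836), and Actc1 was higher at D2PM (0.91, adjusted p = 0.0121) with a value of -0.22 at D4PM (adjusted p = 0.406). Lum and Col1a2, matrix genes of fibroadipogenic progenitors that were higher at D2PM, had values of -0.10 and 0.06 at D4PM minus old (adjusted p = 0.769 and 0.787), and the difference between days did not pass the test. C1qa and Tyrobp, genes of macrophages, differed by -0.11 and -0.10 after death (adjusted p = 0.602 and 0.680).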
